A study of Mus musculus with 24 samples.

Results

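The genes described are the mitochondrial ribosomal protein genes of the mouse, chosen by name as protein-coding genes whose symbol starts with Mrpl or Mrps followed by a digit. The rule found 78 genes among the 55414 gene identifiers counted, 49 named for the large subunit (Mrpl) and 29 for the small subunit (Mrps), and 5 pseudogenes with matching symbols were left out. Their mRNAs were measured in 32D cells, a mouse bone marrow line that depends on interleukin 3 (IL-3), under actinomycin D, a DNA-binding drug that inhibits RNA synthesis. The question behind the series was whether loss of Nat10, the acetyltransferase that makes N4-acetylcytidine (ac4C) in RNA, bears on how long mRNAs last.

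The cells were of 3 genotypes, and every group had 2 libraries. KO1 and KO2 were 32D cells titled Nat10+/- in the labels, with the genotype given as Nat10 deficiency, and WT was the same line without that label. The labels do not describe the edited alleles of KO1 and KO2 or say whether each was grown from a single cell. They call the libraries of a group biological replicates but do not say that these came from separate cultures. Cells of each genotype were taken before the drug (0 h) and 3, 6 and 9 h into it, with actinomycin D given at 0.05 µg/ml, which made 12 groups and 24 libraries of polyadenylated RNA. All groups grew in 10% serum with IL-3 at 10 ng/ml.

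The mitochondrial ribosome translates the few mRNAs that the mitochondrial genome encodes, all of them for subunits of the respiratory chain and ATP synthase. Its rRNAs come from the mitochondrial genome, but all of its proteins are encoded in the nucleus, translated in the cytosol and imported. Many Mrpl and Mrps proteins have a counterpart in the bacterial ribosome, and others, such as Mrpl38, Mrps22, Mrps31 and Mrps34, belong to the mitochondrial ribosome only. Levels of these mRNAs follow the demand for mitochondrial biogenesis in growing cells, and the factors Nrf1, GABP (an ETS factor), YY1 and Myc are known to act on promoters of nuclear genes for mitochondrial proteins.

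The members were compact genes spread over 17 chromosomes, with 11 on chromosome 11 and 8 on chromosome 17. Their median length from first to last exon was 7899.5 bases, against 21586 bases for the 12269 protein-coding genes tested. The shortest member spanned 789 bases and the longest, Mrps28, 121773 bases. Members had a median of 5 merged exon blocks, against 9 for protein-coding genes, and a median exon length of 2394 against 4274 bases. A protein-coding gene on the opposite strand started within 1000 bases of 18 members (23.1%), against 10.8% of the protein-coding genes tested. Examples were Mrpl30 with Mitd1 at 66 bases, Mrpl32 with the proteasome gene Psma2 at 75 bases and Mrps18b with Ppp1r10 at 45 bases.

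RefSeq promoter windows on GRCm38.p6, from 250 bases before to 50 bases after the start, were matched by symbol for 69 of the 78 members. The search covered 6 motifs on both strands. The ETS or GABP motif CCGGAAG lay in 25 member windows (36.2%), against 9.12% of all 27025 windows. The Nrf1 motif, GCGCA followed by any base and GCGC, lay in 13 (18.8%), against 4.78% of all windows, and the YY1 motif AAGATGGC lay in 12 (17.4%), against 2.88%. The CREB or ATF motif TGACGTCA was in 2.90% of member windows and 1.88% of all windows, and the E-box CACGTG in 7.25% and 7.24%. The TATA motif TATAAA was in 5.80% of member windows, against 14.2% of all windows. The median GC content was 58.3% in member windows and 52.7% in all windows. The set of all windows was not limited to genes tested here, and members were not compared with windows of tested genes alone. The contrasts are therefore not shown to be particular to the members. A match describes the letters in the window and shows no binding.

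In the 250 bases before the start, 29 members held at least 1 of the ETS, Nrf1 and YY1 motifs, and 2 members, Mrpl17 and Mrpl32, held 2 of them. These 2 stretches are shown because they carry the motif pairs, and those of Mrpl24 and Mrpl21 because these members were higher in both KO lines at every time. All run 5′ to 3′ on the strand of the gene, with motif letters in capitals. They are chr7:105811088-105811337 on the minus strand, chr13:14613038-14613287 on the minus strand, chr3:87919294-87919543 on the plus strand and chr19:3282792-3283041 on the plus strand, in the order shown.
Mrpl17: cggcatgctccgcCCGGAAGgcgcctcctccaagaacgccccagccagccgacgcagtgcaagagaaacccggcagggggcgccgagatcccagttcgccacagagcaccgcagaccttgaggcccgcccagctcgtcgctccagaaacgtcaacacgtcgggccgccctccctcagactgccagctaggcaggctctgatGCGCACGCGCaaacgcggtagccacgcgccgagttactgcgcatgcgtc
Mrpl32: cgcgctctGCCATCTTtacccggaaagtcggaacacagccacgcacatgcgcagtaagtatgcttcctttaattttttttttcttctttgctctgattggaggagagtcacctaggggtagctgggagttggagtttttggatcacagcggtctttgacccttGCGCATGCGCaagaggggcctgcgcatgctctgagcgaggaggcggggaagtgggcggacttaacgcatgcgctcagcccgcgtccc
Mrpl24: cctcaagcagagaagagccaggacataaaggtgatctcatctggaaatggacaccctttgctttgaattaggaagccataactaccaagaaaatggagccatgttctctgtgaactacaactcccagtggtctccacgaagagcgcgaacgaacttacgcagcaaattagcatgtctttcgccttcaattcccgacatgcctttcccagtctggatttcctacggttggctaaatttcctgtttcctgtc
Mrpl21: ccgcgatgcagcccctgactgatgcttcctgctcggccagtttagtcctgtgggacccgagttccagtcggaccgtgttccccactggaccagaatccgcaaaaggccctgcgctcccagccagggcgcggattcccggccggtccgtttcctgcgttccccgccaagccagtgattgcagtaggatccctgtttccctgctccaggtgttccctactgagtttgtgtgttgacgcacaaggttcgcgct
In Mrpl17 the capitals mark an ETS match at position -237, counted from the start, and an Nrf1 match at -49. In Mrpl32 they mark a YY1 match on the opposite strand at -242 and an Nrf1 match at -87. The Mrpl24 and Mrpl21 stretches held none of the 3 motifs in full, and the ETS match of the Mrpl21 window reached past the bases shown.

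Total gene counts ran from 15361601 to 17338939 per library. Among the tested members the lowest count in any library was 80 and the highest 3457. Nat10 itself had 97.6 and 108 CPM in KO1, 99.1 and 95.1 CPM in KO2 and 111 and 113 CPM in WT before the drug. The log2 difference from WT was -0.12 in KO1 (SE 0.05, edgeR adjusted p = 0.0486) and -0.21 in KO2 (SE 0.05, edgeR adjusted p = 0.000291), and the mRNA was present in every KO library. At 9 h the difference was -0.39 in KO1 and -0.44 in KO2. The KO1 call at 0 h did not hold in DESeq2 (adjusted p = 0.104), without the low-count filter, or without KO1 replicate 1, WT replicate 1 or WT replicate 2. Per the labels an equal amount of spike-in RNA was added to each sample, but spike-in counts were 3742 to 13774 in KO libraries and 120 to 257 in WT libraries. Levels are therefore given as CPM, counts relative to library size after edgeR's TMM factors (0.906 to 1.1166). They are relative levels, neither an exact share of a library nor an amount per cell.

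The cell type in the labels was a bone marrow lymphoblastocyte. Ptprc was present before the drug, at 397 and 401 CPM in KO1, 359 and 338 in KO2 and 409.8 and 415 in WT. Ptprc does not tell myeloid from lymphoid cells. Of 8 myeloid progenitor markers, 6 reached 1 CPM in each genotype. The exceptions were Kit and Mpo, which were at or near 0. Of 7 lymphoid markers 2 reached 1 CPM, Nkg7 and Cd79b, and their summed level was 8.02 to 12.6 CPM in KO1, 8.97 to 10.6 in KO2 and 22.2 to 24.1 in WT. The 5 macrophage markers summed to 54.1 to 57.5 CPM in KO1, 38.3 in both KO2 libraries and 110.4 to 110.5 in WT. Stromal markers summed to 0.132 to 0.439 CPM in KO1, 0.124 to 0.125 in KO2 and 4.55 to 6.86 in WT. Erythroid markers summed to 24.3 to 24.98 CPM in KO1, 38.7 to 39.6 in KO2 and 22.8 to 26.2 in WT. These sums moved with genotype, and their part in the differences below was not tested. In bulk RNA fewer cells of a type and less RNA per cell cannot be told apart.

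Of the 78 members, 77 passed the low-count filter. Mrpl53 did not, with 1 count over all 24 libraries. As annotated, 695 of its 790 exon bases are shared with Ccdc142os or Gm42688, and reads on bases shared by 2 genes could not be assigned by the counting used. Exon bases shared with another gene were found in 32 members (41.0%), against 37.2% of protein-coding genes tested, and the shares were large for Mrps34 (1605 of 2064 bases, with Mapk8ip3 and Nme3) and Mrps25 (4590 of 6576 bases, with Nr2c2). Counts of these members, and of any with near-identical pseudogene copies, are uncertain in level.

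Per kilobase of merged exon, the members spanned a wide range before the drug. In WT the quartiles of the 77 tested members were 9.43, 17.4 and 27.9 CPM per kilobase. Mrpl2, the counterpart of the bacterial protein at the peptidyl transferase centre, was highest at 88.7 in KO1, 81.7 in KO2 and 86.5 ± 3.02 in WT (SD, n = 2). It was followed in WT by Mrpl34 at 67.3 ± 1.79 and Mrpl14 at 59.1 ± 1.35, and these 3 ranges did not overlap in WT. The next members, Mrpl24 at 48.8 ± 0.308 and Mrpl12 at 47.9 ± 0.198 CPM per kilobase, lay within 1 CPM per kilobase of each other. At the low end stood Mrps35 at 3.35 ± 0.011 and Mrps31 at 2.69 ± 0.302, both parts of the small subunit with no bacterial counterpart. Summed over members, the level before the drug was 3793 ± 31.1 CPM in KO1, 3578 ± 32.1 CPM in KO2 and 3443 ± 6.61 CPM in WT (SD, n = 2 each).

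Before the drug, KO1 held more mRNA of many mitochondrial ribosomal proteins than WT, by small amounts. In KO1 against WT, 31 of 77 members were called higher (edgeR quasi-likelihood test, Benjamini-Hochberg adjusted p under 0.05), where 15% of all 16167 genes tested were called higher. Only 2 members were called lower, Mrpl38 and Mrps36, against 12.3% of all genes. The median log2 difference of the members was 0.14, against 0.01 over all genes, and 66 of 77 differences were positive. No called member differed by 2-fold. Subunits are split here and below by symbol. Mrps18a, Mrps30 and Mrps36 thus count with the small subunit, although their proteins sit elsewhere, as described below. The large subunit had 21 of 48 tested members higher and 1 lower (median 0.13) and the small subunit 10 of 29 higher and 1 lower (median 0.16).

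The members that rose most in KO1 were Mrps6, Mrpl9, Mrpl54 and Mrpl24. Mrps6, the counterpart of bacterial S6 in the small subunit, had 18.9 and 19.4 CPM in KO1, 17.2 and 15.3 CPM in KO2 and 13.1 and 13.0 CPM in WT. Its log2 difference in KO1 was 0.56 (SE 0.12, edgeR adjusted p = 6.55e-05), with all 4 KO libraries above both WT libraries. Of its 1533 exon bases 305 are shared with Gm49711 or Slc5a3. Mrpl9, the counterpart of bacterial L9, had 56.8 and 56.2 CPM in KO1, 53.8 and 48.6 CPM in KO2 and 39.2 and 39.5 CPM in WT, and was higher in KO1 by 0.52 (SE 0.06, edgeR adjusted p = 4.86e-11). Mrpl54, a large-subunit protein of mitochondria, had 32.6 and 32.8 CPM in KO1, 31.0 and 34.9 CPM in KO2 and 22.8 and 24.6 CPM in WT, a log2 difference of 0.46 in KO1 (SE 0.09). For both Mrpl9 and Mrpl54 the KO libraries lay above the WT libraries. Mrpl24, the counterpart of bacterial L24 that binds rRNA early in assembly, had 154 and 149 CPM in KO1, 139.6 and 141 CPM in KO2 and 111 and 109.5 CPM in WT, a log2 difference of 0.46 in KO1 (SE 0.04, edgeR adjusted p = 9.26e-17).

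**Figure D1:**
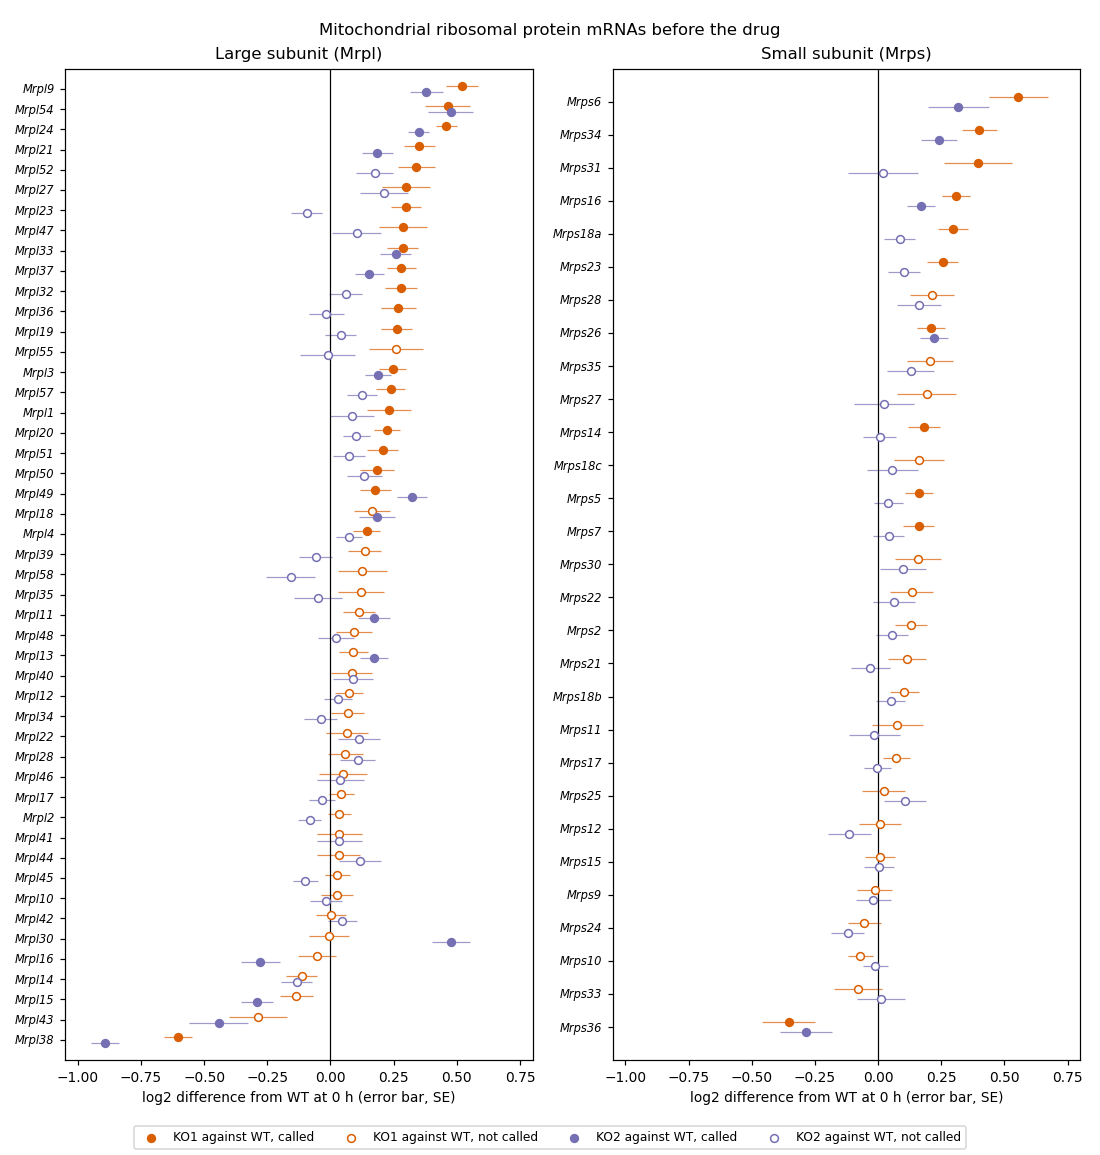
Log2 difference of each tested member from WT at 0 h on the x axis, for KO1 (orange) and KO2 (purple), with members named on the y axis and ordered by the KO1 value within the large subunit (left) and the small subunit (right). Bars are the SE of the edgeR fit, filled points were called at an adjusted p under 0.05, and most KO1 points lie right of 0 while Mrpl38 lies far to the left in both KO lines.

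In KO2 against WT before the drug the counts were smaller. Of 77 members, 16 were called higher and 5 lower, where 15.1% of all genes were called higher and 14.3% lower. The median log2 difference was 0.05, against 0.00 over all genes. The large subunit gave 12 higher and 4 lower of 48, and the small subunit 4 higher and 1 lower of 29. Without KO2 replicate 1 there were 10 higher, without KO2 replicate 2 there were 3 lower, and without WT replicate 2 there were 2 lower. In KO1 against WT, 1 member was lower without KO1 replicate 2 or without WT replicate 2.

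The largest rises in KO2 were in Mrpl30, Mrpl54, Mrpl9 and Mrpl24. Mrpl30, the counterpart of bacterial L30, had 32.5 and 37.0 CPM in KO1, 49.0 and 48.3 CPM in KO2 and 35.1 and 34.8 CPM in WT. In KO2 it was higher than WT by 0.48 (SE 0.07, edgeR adjusted p = 6.17e-08) and did not overlap with WT, whereas KO1 and WT overlapped. Mrpl54 was higher in KO2 by 0.48 (SE 0.09), Mrpl9 by 0.38 (SE 0.06) and Mrpl24 by 0.35 (SE 0.04). Mrps6 was higher by 0.32 (SE 0.12, edgeR adjusted p = 0.0329), a call lost without the low-count filter, in DESeq2, and without WT replicate 1, WT replicate 2 or KO2 replicate 1. Its KO2 libraries, at 17.2 and 15.3 CPM, still lay above both WT libraries.

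The members that fell most in KO2 were Mrpl38, Mrpl43, Mrpl15 and Mrps36. Mrpl38, a protein of the mitochondrial large subunit (chr11:116022643-116029694 on GRCm39, minus strand, 7 exon blocks), had 61.4 and 58.1 CPM in KO1, 49.1 and 48.8 CPM in KO2 and 89.1 and 92.6 CPM in WT. The 3 genotypes did not overlap. The log2 difference from WT was -0.89 in KO2 (SE 0.06, edgeR adjusted p = 1.46e-26) and -0.60 in KO1 (SE 0.06, edgeR adjusted p = 9.39e-17). Mrpl43 had 15.7 and 15.2 CPM in KO1, 12.6 and 15.1 CPM in KO2 and 17.9 and 19.8 CPM in WT, a log2 difference of -0.44 in KO2 (SE 0.12) that was called with all libraries but not without KO2 replicate 1 or WT replicate 2. Of its exon bases 507 of 1520 are shared with Twnk, the mitochondrial DNA helicase. Mrpl15, the counterpart of bacterial L15, had 44.8 and 46.1 CPM in KO1, 40.5 and 41.0 CPM in KO2 and 50.5 and 49.3 CPM in WT, and was lower in KO2 by a log2 difference of -0.29 (SE 0.06).

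Mrps36 was the other member called lower in each KO line. Its protein is named for the small subunit but is a component of the 2-oxoglutarate dehydrogenase complex of the citric acid cycle. It had 19.6 and 17.2 CPM in KO1, 20.9 and 17.7 CPM in KO2 and 23.0 and 24.1 CPM in WT, with log2 differences of -0.35 in KO1 (SE 0.10, edgeR adjusted p = 0.00575) and -0.28 in KO2 (SE 0.10, edgeR adjusted p = 0.0271). Both calls rest on single libraries. The KO1 call was lost without KO1 replicate 2 or WT replicate 2, and the KO2 call without KO2 replicate 2 or WT replicate 2 and in DESeq2.

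Most members with a role beyond the general one did not pass the test at 0 h. Mrpl12 and Mrpl10 form the flexible stalk of the large subunit, and human MRPL12 also binds the mitochondrial RNA polymerase. Mrpl12 had 76.1 and 78.5 CPM in KO1, 71.1 and 78.9 CPM in KO2 and 73.2 and 73.7 CPM in WT, with log2 differences of 0.07 in KO1 and 0.03 in KO2 that did not pass. Mrpl58, a peptidyl-tRNA hydrolase built into the large subunit, had 28.6 and 25.8 CPM in KO1, 21.1 and 23.5 CPM in KO2 and 24.3 and 25.5 CPM in WT, with differences of 0.13 in KO1 and -0.16 in KO2. Mrpl45, which in mammals ties the exit tunnel to the inner membrane, gave 0.03 and -0.10, Mrpl44, whose protein has a ribonuclease III fold, 0.03 and 0.12, and Mrps27, a pentatricopeptide repeat protein, 0.19 and 0.02 in KO1 and KO2. Mrps12, the counterpart of the bacterial decoding protein S12, gave 0.01 and -0.11, and Mrpl41 0.04 and 0.03 in KO1 and KO2, none of them called. Mrpl10 gave 0.03 and -0.02, also not called.

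Mrps18a, Mrps18b and Mrps18c encode versions of bacterial S18, and in mammals the Mrps18a protein sits in the large subunit, as does Mrps30. Mrps18a had 77.5 and 82.0 CPM in KO1, 68.2 and 69.7 CPM in KO2 and 66.0 and 64.0 CPM in WT, and rose in KO1 by 0.30 (SE 0.06, edgeR adjusted p = 2.33e-05). Its KO2 difference of 0.08 did not pass. Mrps18b gave 0.10 and 0.05, Mrps18c 0.16 and 0.06 and Mrps30 0.16 and 0.10 in KO1 and KO2, none of them called.

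The KO lines also differed from each other. In KO2 against KO1 at 0 h, 1 member was called higher and 12 lower, where 7.29% of all genes were called higher and 9.55% lower, and the median log2 difference was -0.09. The large subunit held 9 of the 12 lower members. Mrpl30 was the member that rose, by 0.48 (SE 0.07, edgeR adjusted p = 1.25e-07). Mrpl23, the counterpart of bacterial L23 beside the exit tunnel, had 50.1 and 49.5 CPM in KO2 and 67.5 and 63.2 CPM in KO1, a log2 difference of -0.39 (SE 0.06, edgeR adjusted p = 1.2e-07). WT libraries, at 53.8 and 52.6 CPM, lay between them, and Mrpl23 was higher in KO1 than in WT by 0.30 (SE 0.06). Mrps31 had 8.56 and 9.40 CPM in KO2 and 11.7 and 11.6 in KO1, a log2 difference of -0.38 (SE 0.13) whose call was lost without any 1 of the 4 libraries, without the low-count filter and in DESeq2. Mrpl38 was lower in KO2 than in KO1 by a log2 difference of -0.29 (SE 0.06) and Mrpl32 by -0.22 (SE 0.06), the Mrpl32 call being lost without KO1 replicate 2 or KO2 replicate 2. Without KO1 replicate 2 there were 6 members lower, without KO2 replicate 2 there were 7, and DESeq2 called 6.

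During the drug the KO lines were compared with WT at the same time. At 3 h, 19 members were higher and 12 lower in KO1 (20.1% and 16.7% of all genes), and 23 higher and 11 lower in KO2 (21.1% and 17.6%). At 6 h, 32 were higher and 5 lower in KO1 (18.4% and 17.4% of all genes), and 19 higher and 5 lower in KO2 (17.5% and 16.8%). At 9 h, 24 were higher and 8 lower in KO1 (19.3% and 15.1% of all genes), and 24 higher and 7 lower in KO2 (18.7% and 16.5%). The median log2 difference of the members was 0.03, 0.12 and 0.12 in KO1 and 0.05, 0.08 and 0.09 in KO2 at 3, 6 and 9 h. Scaling by total gene counts gave 32 higher and 9 lower in KO2 at 3 h, 38 and 2 at 6 h and 39 and 4 at 9 h, and 33 higher and 4 lower in KO1 at 9 h. That scale also moved the median of all genes up, to 0.08, 0.09 and 0.06 in KO2 and to 0.05 in KO1 at 9 h. In KO1 at 6 h, 21 members were higher without WT replicate 1, and 3 were lower without KO1 replicate 2 or without WT replicate 2. In KO1 at 9 h 5 were lower without WT replicate 1, and in KO2 at 6 h 2 were lower without KO2 replicate 1.

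In all, 3 members were called the same way in each KO line against WT at all 4 times, Mrpl24 and Mrpl21 higher and Mrpl38 lower. How many of all genes were called so was not counted, so 3 cannot be read as many or few. Both KO lines were set against the same WT libraries, so these are not independent comparisons. Mrpl38 in KO1 was 61.4 and 58.1 at 0 h, 47.2 and 51.6 at 3 h, 53.8 and 52.5 at 6 h and 48.7 and 47.1 at 9 h in CPM. In KO2 it was 49.1 and 48.8 at 0 h, 48.6 and 43.7 at 3 h, 41.5 and 46.0 at 6 h and 42.1 and 41.2 at 9 h, and in WT 89.1 and 92.6 at 0 h, 76.4 and 75.3 at 3 h, 85.0 and 81.4 at 6 h and 78.1 and 84.3 at 9 h. Every KO library lay below every WT library at each time, and the log2 difference ran from -0.60 at 0 h to -0.76 at 9 h in KO1 and from -0.89 to -0.96 in KO2. At 9 h the KO2 level was 0.513 of the WT level (edgeR adjusted p = 1.75e-28).

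Mrpl24 (chr3:87826813-87830979 on GRCm39, plus strand) fell over the drug in all genotypes. In CPM it was 154 and 149 at 0 h, 121 and 119 at 3 h, 76.9 and 73.8 at 6 h and 61.8 and 58.1 at 9 h in KO1. In KO2 it was 139.6 and 141 at 0 h, 119 and 112 at 3 h, 76.0 and 76.1 at 6 h and 61.8 and 67.8 at 9 h, and in WT 111 and 109.5 at 0 h, 99.8 and 102 at 3 h, 61.2 and 64.1 at 6 h and 52.4 and 52.5 at 9 h. The KO libraries lay above the WT libraries at each time. Its log2 difference from WT was 0.25, 0.27 and 0.19 in KO1 and 0.19, 0.28 and 0.31 in KO2 at 3, 6 and 9 h, all called, the KO1 value at 9 h not without KO1 replicate 1. Of its 2255 exon bases, 594 are shared with Rrnad1. Mrpl21, the counterpart of bacterial L21, had 82.7 and 83.2 CPM in KO1, 85.0 and 88.7 CPM in KO2 and 67.1 and 72.9 CPM in WT at 3 h, its highest time in each genotype, and log2 differences of 0.24 in KO1 (SE 0.06) and 0.31 in KO2 (SE 0.06). At 0 h the Mrpl21 difference in KO1 was larger, at 0.35 (SE 0.06, edgeR adjusted p = 1.11e-06). Some of its other calls outside 3 h were less firm. The KO2 call at 0 h was lost in DESeq2 and without KO2 replicate 1 or WT replicate 2. At 9 h the KO1 call was lost without KO1 replicate 2 or WT replicate 2 and the KO2 call without KO2 replicate 1, and at 6 h the KO1 call was lost without WT replicate 1.

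**Figure D2:**
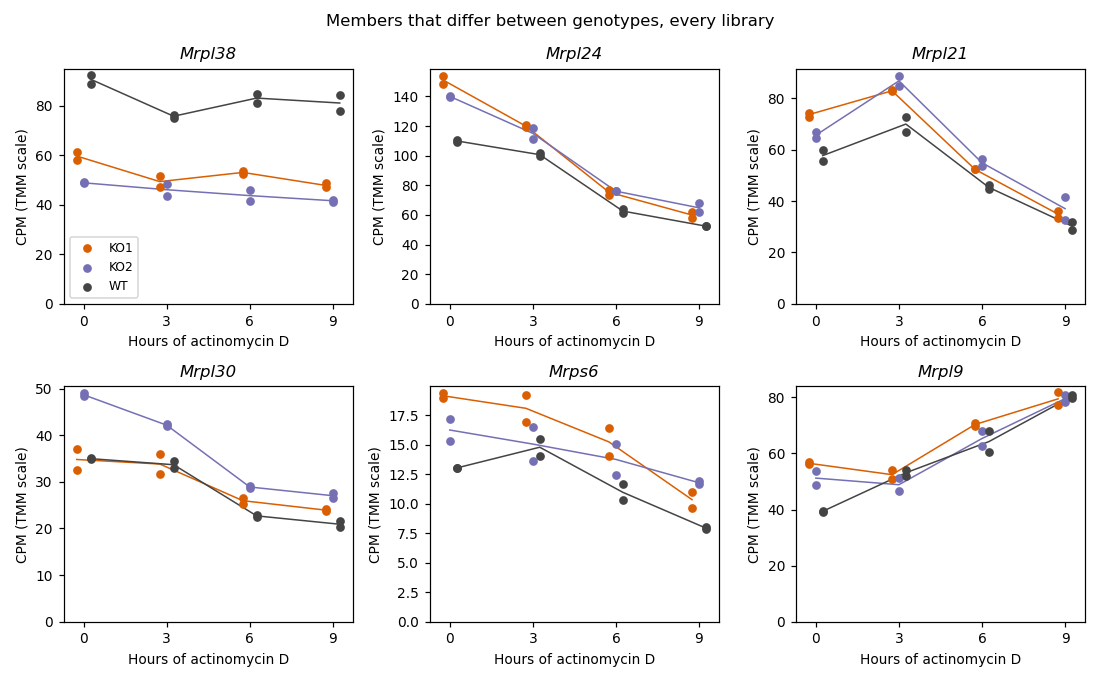
CPM on the TMM scale (y axis) against hours of actinomycin D (x axis) for 6 members that differed between genotypes, with KO1 in orange, KO2 in purple and WT in grey. Points are single libraries, slightly offset along the x axis, and lines join means of 2 libraries. Mrpl38 lies below WT in both KO lines at every time, and Mrpl9 starts higher in the KO lines at 0 h, while all its 3 h libraries lie between 46.5 and 54.1 CPM.

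Mrpl17 and Mrpl41 were chosen after their values were seen, from the members not called against WT at 0 h and called at 9 h. They were not the only such members. Mrps15 and Mrps24, higher in both KO lines at 9 h, and Mrps17, lower in both, were among the others. Mrpl17, with the ETS and Nrf1 motifs shown above, had 76.7 and 72.9 CPM in KO1, 69.3 and 72.3 CPM in KO2 and 71.8 and 73.2 CPM in WT at 0 h, where the groups overlapped, and 53.0 and 50.3 CPM in KO1, 57.8 and 57.8 CPM in KO2 and 72.3 and 73.5 CPM in WT at 9 h, where they did not. Mrpl17 was already called lower at 3 h, with log2 differences of -0.20 in KO1 (SE 0.05) and -0.25 in KO2 (SE 0.05). The log2 difference at 9 h was -0.50 in KO1 (SE 0.05) and -0.34 in KO2 (SE 0.05). Mrpl41, a large-subunit protein of mitochondria, went the other way, with 49.6 and 49.3 CPM in KO1, 55.0 and 49.8 CPM in KO2 and 35.7 and 35.3 CPM in WT at 9 h and log2 differences of 0.48 in KO1 and 0.56 in KO2 (SE 0.07 in KO2).

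Over the time course, the summed level of the members was highest at 3 h on the TMM scale. The summed level of all members in KO1 was 3793 ± 31.1 CPM at 0 h, 4246 ± 18.4 at 3 h, 3843 ± 6.29 at 6 h and 3475 ± 27.5 at 9 h (SD, n = 2 each). In KO2 it was 3578 ± 32.1, 4302 ± 5.59, 3737 ± 40.1 and 3476 ± 18.7 CPM at the same times, and in WT 3443 ± 6.61, 4199 ± 9.09, 3633 ± 24.8 and 3354 ± 3.11 CPM. On this scale the sum at 9 h lay below that at 0 h in every genotype, and the genotypes lay closer together at 3 h than before the drug. As a percent of all gene counts, with no TMM factor, the members' sum at 0, 3, 6 and 9 h was 0.367% ± 0.0016, 0.399% ± 0.0023, 0.391% ± 0.00022 and 0.381% ± 0.0027 in KO1 (SD, n = 2 each). The KO2 values were 0.348% ± 0.0029, 0.409% ± 0.00039, 0.39% ± 0.0034 and 0.388% ± 0.0016, and the WT values 0.336% ± 0.00087, 0.381% ± 0.0021, 0.353% ± 0.0027 and 0.356% ± 0.001. This share was also highest at 3 h, but at 9 h it lay above that at 0 h in every genotype, so the direction from 0 to 9 h depends on the scale. KO2 and WT were further apart in this share at 3 h (0.409% and 0.381%) than at 0 h (0.348% and 0.336%). Whether the genotypes drew closer at 3 h therefore depends on the scale as well.

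Marker sums moved over the same times. With levels at 9 h set against those at 0 h (SD, n = 2 each), the macrophage markers summed to 266 ± 2.31 against 55.8 ± 2.45 CPM in KO1, 220.3 ± 0.09 against 38.3 ± 0.02 CPM in KO2 and 289.7 ± 2.41 against 110.5 ± 0.06 CPM in WT. Lymphoid markers summed to 32.7 ± 0.26 against 10.3 ± 3.23 CPM in KO1, 36.9 ± 1.02 against 9.80 ± 1.17 CPM in KO2 and 64.5 ± 5.22 against 23.1 ± 1.32 CPM in WT, and erythroid markers to 45.8 ± 2.47 against 24.6 ± 0.51 CPM in KO1, 60.0 ± 1.91 against 39.1 ± 0.68 CPM in KO2 and 41.0 ± 0.1 against 24.5 ± 2.40 CPM in WT. The myeloid progenitor markers summed to 668 ± 6.91 against 1258 ± 3.45 CPM in KO1, 606 ± 7.39 against 1204 ± 1.04 CPM in KO2 and 645 ± 5.93 against 1348 ± 12.7 CPM in WT, and stromal markers to 0.7 ± 0.42 against 0.29 ± 0.22 CPM in KO1, 0.93 ± 0.16 against 0.12 ± 0.01 CPM in KO2 and 0.96 ± 0.13 against 5.70 ± 1.63 CPM in WT. Their part in the members' changes was not tested.

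From 0 to 3 h, 44 members rose and 19 fell in KO1 (37.9% and 33.4% of all genes), 48 rose and 14 fell in KO2 (37.6% and 33.3%) and 52 rose and 16 fell in WT (38.6% and 33.5%). From 3 to 9 h, 11 rose and 49 fell in KO1 (32.1% and 33% of all genes), 11 and 52 in KO2 (32.5% and 33.7%) and 11 and 55 in WT (34.2% and 31.6%). Over the whole course from 0 to 9 h, 24 rose and 44 fell in KO1 (42.2% and 38.3% of all genes), 26 and 40 in KO2 (42% and 38.8%) and 27 and 40 in WT (43.2% and 38.5%). The median log2 change of the members at 9 h against 0 h was -0.29 in KO1, -0.14 in KO2 and -0.17 in WT, against 0.12, 0.09 and 0.13 over all genes. These are changes relative to other transcripts of the library.

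Another scale moved these splits. With spike-in totals as the scale, 3 h against 0 h gave 17 higher and 20 lower in KO1, 1 higher and 46 lower in KO2 and 7 higher and 28 lower in WT. The change from 3 to 9 h gave 12 higher and 28 lower in KO1, 1 and 66 in KO2 and 0 and 60 in WT, and 9 h against 0 h gave 1 and 70 in KO2 and 1 and 62 in WT. On that scale the median of all genes at 9 h moved to 0.20 in KO1, -1.03 in KO2 and -0.70 in WT, and the WT libraries had few spike-in counts. Scaling by total gene counts gave 22 higher and 36 lower in KO1, 19 and 40 in KO2 and 17 and 43 in WT from 3 to 9 h, and 31 and 36 in KO1 and 34 and 33 in KO2 from 0 to 9 h. On this scale the median of all genes from 0 to 9 h was 0.30 in KO1, 0.29 in KO2 and 0.24 in WT. From 3 to 9 h it was 0.24 in KO1, 0.23 in KO2 and 0.29 in WT. What follows is on the TMM scale.

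**Figure D3:**
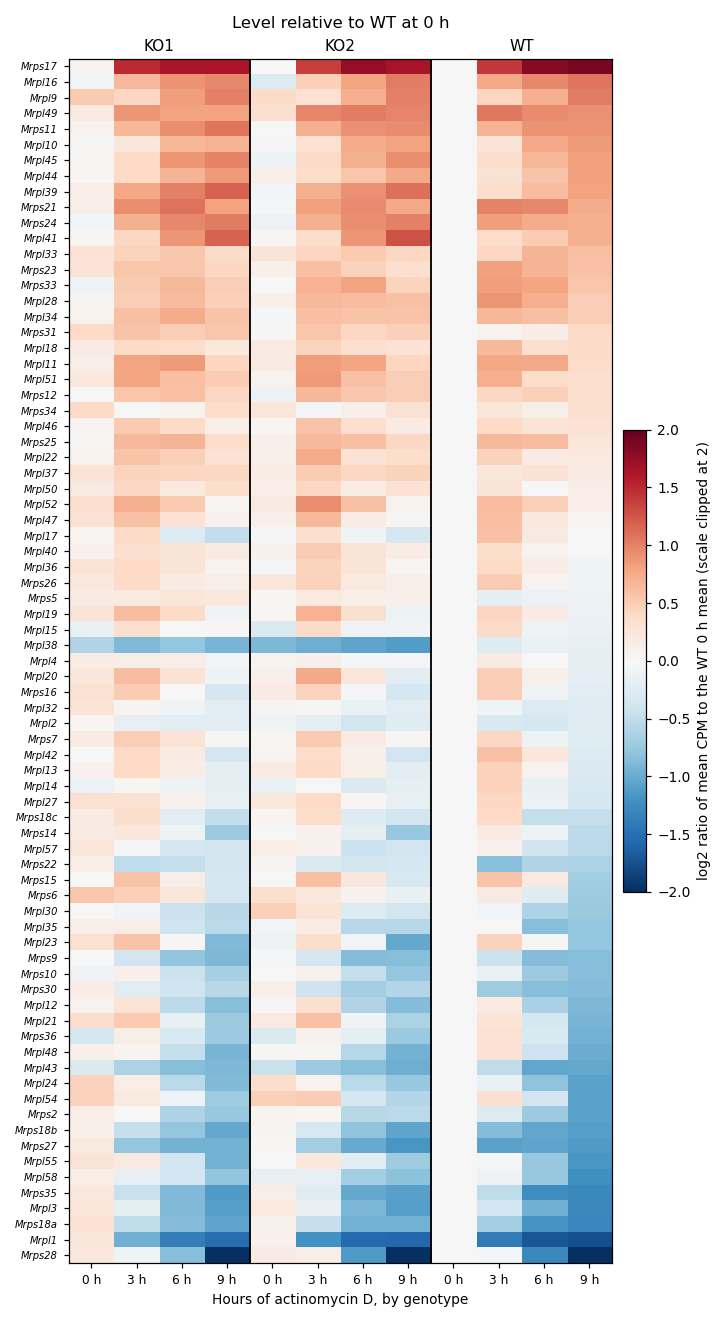
Log2 ratio of each tested member's mean CPM to its WT mean at 0 h, as colour (red higher, blue lower, clipped at 2), at 0, 3, 6 and 9 h in KO1, KO2 and WT along the x axis, with members down the y axis ordered by the WT value at 9 h. Mrps17 at the top turns deep red and Mrps28 and Mrpl1 at the bottom turn deep blue by 9 h in every genotype, and Mrpl38 is blue in the KO lines at all times.

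Single members diverged far more than the group. In WT, 37 members rose from 0 to 3 h and then fell from 3 to 9 h, 10 rose in both steps and 10 fell in both. A further 8 fell in the second step only, 6 in the first step only, and 5 rose in the first step only. The pair of calls was the same in all 3 genotypes for 45 of 77 members, of which 23 rose then fell, 8 rose in both steps and 7 fell in both. Across the 77 members the change from 0 to 9 h in KO1 and in WT correlated with r = 0.954 and rho = 0.951, in KO2 and in WT with r = 0.957 and rho = 0.959, and in KO2 and KO1 with r = 0.984 and rho = 0.984, as a description. The points share libraries and depth, so no p is given. Neither these patterns nor these correlations were computed over all genes, so they are not shown to be particular to the members.

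Mrps17, the counterpart of bacterial S17, gained most in every genotype. In CPM it was 57.4 and 55.2 at 0 h, 151 and 149 at 3 h, 165 and 165 at 6 h and 163 and 168 at 9 h in KO1. In KO2 it was 53.3 and 53.6 at 0 h, 142 and 136 at 3 h, 182 and 179 at 6 h and 172 and 165 at 9 h, and in WT 52.0 and 55.1 at 0 h, 139 and 147 at 3 h, 195 and 184 at 6 h and 201 and 195 at 9 h. The later groups did not overlap with the 0 h group of their genotype. From 0 to 9 h it rose by 1.55 log2 units in KO1 (SE 0.04), 1.66 in KO2 (SE 0.04) and 1.89 in WT (SE 0.04, edgeR adjusted p = 1.05e-65). Mrpl16, the counterpart of bacterial L16, was among the largest in KO2 at 1.29 and in WT at 1.07. Mrpl41 rose by 1.15 in KO1, 1.23 in KO2 and 0.71 in WT, and on the spike-in scale its WT change was -0.12. Mrpl39, a mitochondrial protein of the large subunit, rose by 1.04 in KO1 and 1.15 in KO2. Mrps24 rose by 1.098 in KO1, and Mrpl9 by 1.03 and Mrpl49 by 0.92 in WT.

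Mrps28 (chr3:8867206-8988978 on GRCm39, minus strand) fell most in every genotype. Its level was 36.7 and 33.8 at 0 h, 28.4 and 29.0 at 3 h, 16.8 and 16.97 at 6 h and 7.45 and 6.05 at 9 h CPM in KO1. In KO2 it was 36.2 and 31.8 at 0 h, 34.1 and 32.3 at 3 h, 13.6 and 14.2 at 6 h and 5.27 and 6.84 at 9 h CPM, and in WT 30.5 and 30.2 at 0 h, 29.9 and 29.5 at 3 h, 11.7 and 13.1 at 6 h and 5.13 and 4.64 at 9 h CPM. The log2 change from 0 to 9 h was -2.38 in KO1 (SE 0.11), -2.49 in KO2 (SE 0.11) and -2.64 in WT (SE 0.12, edgeR adjusted p = 1.27e-38), and at 6 and 9 h every library lay below the 0 h libraries of its genotype. Mrpl1, the counterpart of the bacterial protein L1, fell with log2 changes of -1.75 in KO1, -1.65 in KO2 and -1.75 in WT. Mrpl3 gave -1.35 in KO1, -1.29 in KO2 and -1.29 in WT, and Mrps18a -1.35 in KO1 and -1.31 in WT. Mrps35 gave -1.22 in KO2.

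Members with a particular role took different courses in WT. The stalk proteins parted, with Mrpl10 at a log2 change of 0.84 and Mrpl12 at -0.91 from 0 to 9 h. Mrpl44 rose by 0.81 and Mrpl45 by 0.82, while Mrpl58 changed by -1.23, Mrps27 by -1.13 and Mrps30 by -0.87. Of the S18 genes, Mrps18a, Mrps18b at -1.104 and Mrps18c at -0.47 fell. Mrps12 rose by 0.33. On the spike-in scale the direction turned for Mrpl45 (-0.0032) and Mrps12 (-0.50).

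**Figure D4:**
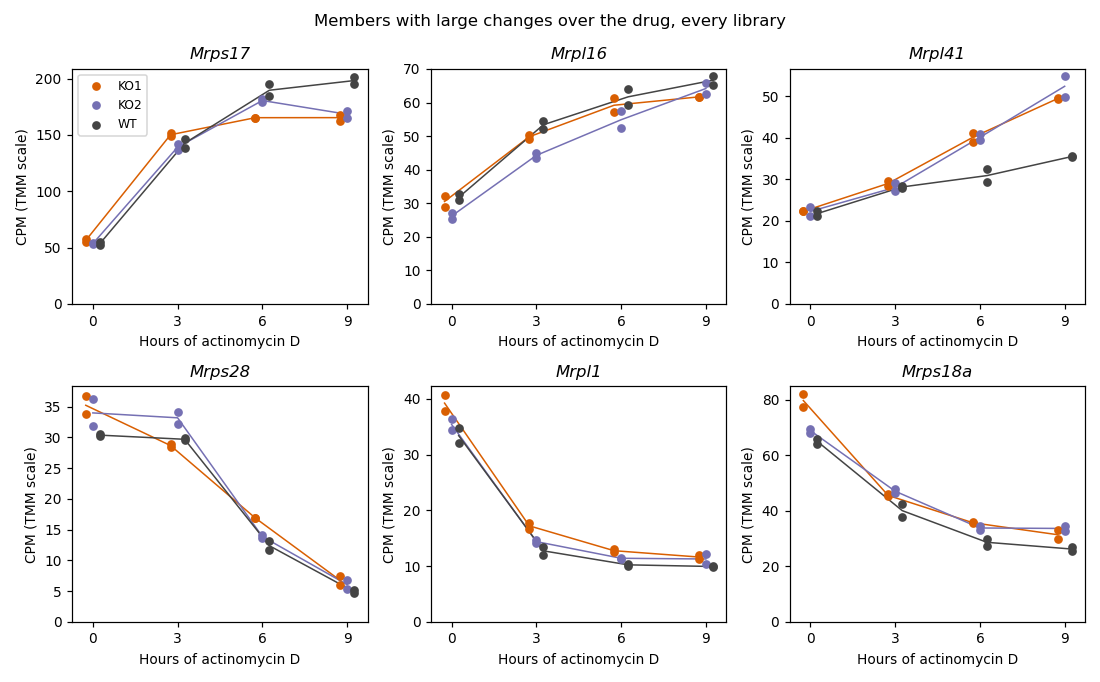
CPM on the TMM scale (y axis) against hours of actinomycin D (x axis) for Mrps17, Mrpl16, Mrpl41, Mrps28, Mrpl1 and Mrps18a, with KO1 in orange, KO2 in purple and WT in grey. Points are single libraries, slightly offset along the x axis, and lines join means of 2 libraries. Mrps17 climbs and Mrps28 drops in all 3 genotypes.

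The longest members had low medians late in the course. The 11 members that span over 20 kb, a limit chosen after the values were seen, had a median log2 change from 0 to 9 h of -1.03 in KO1, -0.96 in KO2 and -0.99 in WT. Of these 11, 10 fell and 0 rose in KO1 (38.3% and 42.2% of all genes). In KO2 (38.8% and 42%) and in WT (38.5% and 43.2%) 10 fell and 1 rose. Whether other genes of this span changed likewise was not tested. The other 66 members had medians of -0.16 in KO1, -0.06 in KO2 and -0.09 in WT, with 26 higher and 30 lower in WT. The long members were Mrps28, Mrpl1, Mrpl3, Mrpl13, Mrpl33, Mrpl42, Mrpl48, Mrps6, Mrps9, Mrps27 and Mrps35. Across all 77 members the log10 span correlated with the WT change at r = -0.335 and rho = -0.207, as a description. In KO1 at 0 h, where 15% of all genes were called higher, members with an ETS motif had 11 of 24 higher and a median of 0.18, and those without it 16 of 44 and 0.10. For the Nrf1 motif the order was the other way, with 4 of 13 and 0.07 among members that hold it and 23 of 55 and 0.16 among the rest. For the YY1 motif the values were 6 of 12 and 0.17 with it and 21 of 56 and 0.13 without. In KO2, where 15.1% of all genes were called higher, the counts were 6 of 24 with the ETS motif and 7 of 44 without, 3 of 13 and 10 of 55 for Nrf1, and 2 of 12 and 11 of 56 for YY1. In WT from 0 to 9 h the medians were -0.15 with and -0.15 without the ETS motif, -0.08 and -0.20 for Nrf1 and -0.16 and -0.15 for YY1.

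The change over time itself differed between KO line and WT for some members. For the step from 0 to 3 h, 5 members changed more upward and 18 more downward in KO1 than in WT (13.1% and 12.7% of all genes), and 10 and 14 in KO2 (13.3% and 11.4%). For the step from 3 to 9 h, 12 were more upward and 5 more downward in KO1 (11% and 10.1% of all genes), and 11 and 6 in KO2 (9.99% and 10.8%). The median difference in change was -0.10 and 0.06 in KO1 and 0.03 and 0.04 in KO2 for the 2 steps. The large subunit held 14 of the 18 in KO1. On the spike-in scale the first step gave 7 and 0 in KO1 and 0 and 4 in KO2, and the second 62 and 0 in KO1 and 0 and 1 in KO2. The median of all genes moved too on that scale, to 0.34 and 0.54 in KO1 and -0.16 and -0.16 in KO2 for the 2 steps. RLE size factors gave 17 and 4 in KO1 and 13 and 4 in KO2 for the second step, and total counts 14 and 9 in KO2 for the first.

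Some of these counts moved with 1 library. For the first step in KO1, 3 members were more upward without any 1 of 7 of the 8 libraries, the exception being WT 3 h replicate 2. For the second step in KO1, 3 were more downward without KO1 9 h replicate 2, WT 3 h replicate 1 or WT 9 h replicate 2. In KO2 the first step gave 6 upward without KO2 0 h replicate 2, and 8 and 9 downward without WT 3 h replicate 2 and KO2 0 h replicate 2. The second step gave 5 upward without WT 9 h replicate 2 and 7 without WT 3 h replicate 1 or KO2 3 h replicate 2.

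Mrpl9 and Mrps34 were among the 3 largest downward differences of the first step in each KO line. Mrpl9 had 50.9 and 54.0 CPM in KO1, 46.5 and 51.2 CPM in KO2 and 54.1 and 52.0 CPM in WT at 3 h. There KO1 and WT overlapped and KO2 lay below WT, where at 0 h both KO lines lay above it. Its change differed from WT by -0.54 in KO1 (SE 0.09) and -0.50 in KO2 (SE 0.09). Mrps34 had 51.7 and 63.4 CPM in KO1, 54.1 and 49.2 CPM in KO2 and 41.6 and 45.7 CPM in WT at 0 h and 42.9 and 43.8 CPM in KO1, 47.0 and 38.8 CPM in KO2 and 50.4 and 53.0 CPM in WT at 3 h, a difference in change of -0.65 in KO1 and -0.52 in KO2. Most of its exon bases are shared with other genes. Mrps18b was upward in the first step, by 0.30 in KO1 and 0.50 in KO2, and downward in the second, by -0.32 and -0.50. The 2 steps share the 3 h libraries, with opposite sign, so these differences are not independent. At 3 h it had 48.1 and 52.4 CPM in KO1, 54.6 and 56.8 in KO2 and 37.5 and 38.6 in WT. In KO1 the first call was lost without KO1 3 h replicate 2, and the second without that library, KO1 9 h replicate 1, WT 3 h replicate 1 or WT 9 h replicate 2.

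Related gene lists were set beside the members. At 0 h, 15% of all genes were called higher and 12.3% lower in KO1, and 15.1% and 14.3% in KO2. The 5 mitochondrial ribosomal proteins under other names, among them Dap3 and Ptcd3, gave 0 calls in edgeR in KO1 and 0 in KO2 at 0 h, and 0 reached an unadjusted p under 0.05 in either. Genes for ribosome assembly and rRNA modification gave 13 of 26 higher and 0 lower in KO1 (median 0.19) and 6 higher and 0 lower in KO2 (median 0.14). Among them was the rRNA methyltransferase Mrm1, at 0.50 in KO1 and 0.60 in KO2. Translation factors gave 4 higher and 1 lower of 15 in KO1 and 2 higher and 0 lower in KO2. Of 12 tested regulators of mitochondrial biogenesis 6 were higher and 1 lower in KO1 and 6 higher and 0 lower in KO2. Myc, a transcription factor of growth, was higher in KO1 by 0.48, and Nrf1 by 0.44 in KO1 and 0.44 in KO2.

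Cytosolic ribosomal protein genes gave 19 higher and 21 lower of 85 in KO1 at 0 h (median 0.00) and 6 higher and 67 lower in KO2 (median -0.12). The shares of all genes at 0 h were 15% higher and 12.3% lower in KO1 and 15.1% and 14.3% in KO2. Nuclear-encoded respiratory chain genes gave 14 higher and 6 lower of 83 in KO1 and 3 higher and 36 lower in KO2. The 13 mRNAs of the mitochondrial genome gave 0 higher and 6 lower in KO1 and 0 higher and 9 lower in KO2 (median -0.46). From 0 to 9 h in WT, 80 of 85 cytosolic ribosomal protein genes rose and 1 fell (median 0.69), and 54 of 83 respiratory chain genes rose and 18 fell (median 0.45), where 27 of 77 members rose and 40 fell. Of all genes, 43.2% rose and 38.5% fell over that course in WT. Summed cytosolic ribosomal protein mRNA at 9 h was 95491 ± 54.4 CPM in KO1, 92353 ± 263 CPM in KO2 and 120328 ± 373 CPM in WT, while the members' sums at 9 h were 3475 ± 27.5 CPM in KO1, 3476 ± 18.7 in KO2 and 3354 ± 3.11 in WT (SD, n = 2 each). Myc fell in WT to 0.0547 of its 0 h level and Nrf1 to 0.116.

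**Figure D5:**
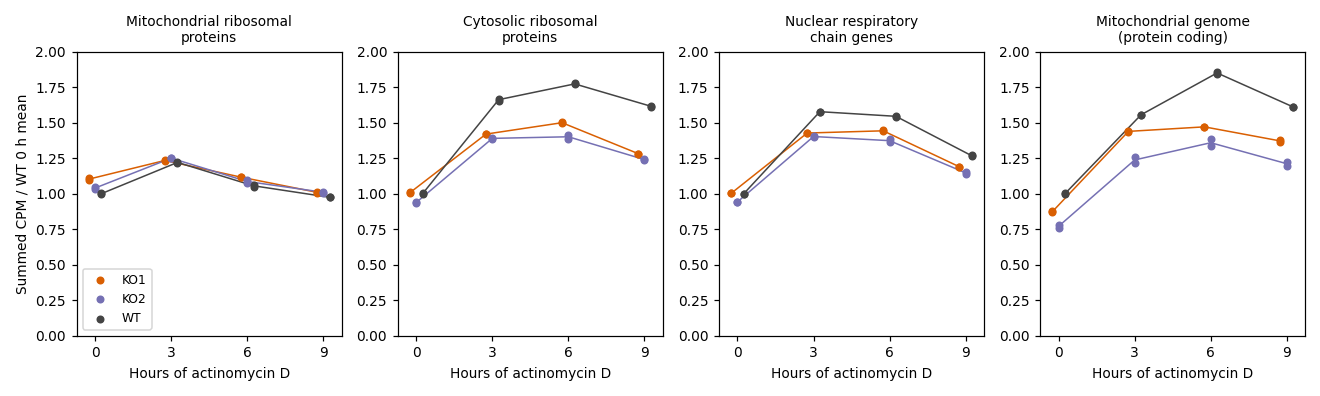
Summed CPM on the TMM scale of each gene list divided by its WT mean at 0 h (y axis) against hours of actinomycin D (x axis), with KO1 in orange, KO2 in purple and WT in grey. Points are single libraries, slightly offset along the x axis, and lines join means of 2 libraries. On this scale the members peak at 3 h with the genotypes close together, while the cytosolic ribosomal protein mRNAs stand higher in WT than in the KO lines from 3 h on.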

How the data were processed

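Polyadenylated RNA of 24 libraries was sequenced from 12 groups of 2. Per the file headers, the authors' deposited values are raw counts per gene made with featureCounts 1.6.3, counting read pairs over exons against Ensembl 105 (GRCm39) with spike-in sequences, without strand and without an option for reads shared between genes. Per the labels' protocols the kit was directional. STAR and DESeq2 are named in the submitters' processing notes.

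Genes were named from GENCODE M21 (52081 of 55414 identifiers). The counts were fitted in edgeR 4.0.16 (R 4.3.3) with 1 model of 12 groups, TMM scaling, filterByExpr with a minimum count of 10, and the quasi-likelihood test. A call is a Benjamini-Hochberg adjusted p under 0.05 over all 16167 genes tested, with SE from the fit. CPM are on the TMM scale. The common biological coefficient of variation was 0.0206. On simulated counts for KO1 against WT at 0 h over 16167 genes, 56% of genes changed 1.2-fold and 96% of genes changed 1.5-fold were recovered. Only 50 genes were changed at each fold, fewer than were called in the data, and they were not chosen from the members. Recovery among the members may therefore differ. Total counts per library were 15361601 to 17338939. Since the labels do not name separate cultures, p-values measure the spread between these samples, which may be technical.

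The members and gene lists were chosen with earlier results of these data known. Named members are those with the highest and lowest levels per kilobase, the largest called differences in each comparison, those called the same way in both KO lines at every time, and those with a particular role. Others are said to have been chosen after their values were seen. Alternatives were RLE size factors, total gene counts or spike-in totals as scale, no low-count filter, DESeq2 1.42.0, a replicate block, the 0 h libraries alone (added after seeing the data) and leaving out each library.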

Additional observations from a re-analysis of the deposited data

Results flagged for a closer look

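These members changed over time by a different amount in a KO line than in WT, by a test of the difference itself in edgeR (adjusted p under 0.05 over all genes), and are those with the 3 largest called differences each way. Values are log2 differences in change, KO line minus WT, and both KO lines were set against the same WT libraries. The steps from 0 to 3 h and from 3 to 9 h share the 3 h libraries.

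From 0 to 3 h, KO1 was below WT in the change of Mrps34 (-0.65), Mrpl54 (-0.58) and Mrpl9 (-0.54), and above it in that of Mrps30 (0.35), Mrps10 (0.31) and Mrps18b (0.30). The Mrps30 call was lost without any 1 of 7 libraries, with RLE size factors, without the low-count filter and in DESeq2, and the Mrps18b call without KO1 3 h replicate 2. From 3 to 9 h, KO1 was above WT for Mrpl14 (0.51), Mrpl58 (0.51) and Mrps28 (0.51), and below it for Mrps17 (-0.33), Mrps18b (-0.32) and Mrpl17 (-0.29). The Mrps28 call was lost without any 1 of 6 libraries and without the low-count filter, and the Mrpl58 call without KO1 9 h replicate 1 or WT 3 h replicate 1.

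From 0 to 3 h, KO2 was below WT for Mrps34 (-0.52), Mrpl9 (-0.50) and Mrpl18 (-0.40), and above it for Mrps18b (0.50), Mrps22 (0.49) and Mrpl39 (0.42). From 3 to 9 h, KO2 was above WT for Mrpl41 (0.57), Mrpl14 (0.56) and Mrps6 (0.55), and below it for Mrps18b (-0.50), Mrpl52 (-0.37) and Mrpl20 (-0.30). The Mrps6 call was lost without any 1 of 4 libraries and the Mrpl20 call without KO2 9 h replicate 2.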

How the results depend on the processing

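All 44 counts of called members stayed within 1.5 times under a replicate block, which changed no call of a named result. Same-numbered libraries did not deviate together (r -0.0267 to 0.0646 over 66 pairs). The 6 counts recomputed from 0 h libraries alone also stayed within it. With RLE size factors, 3 were lower in KO1 at 6 h. With total gene counts, lower counts were 3 in KO1 and 2 in KO2 at 6 h and 4 in each KO line at 9 h, higher counts were 38 in KO2 at 6 h and 39 at 9 h, and the step from 3 to 9 h gave 22 higher in KO1, 19 in KO2 and 17 in WT. The first step differed downward in KO2 for 9. With this scale the median difference of all genes from WT was 0.04 and 0.05 in KO1 and 0.09 and 0.06 in KO2 at 6 and 9 h. Without the low-count filter, 3 were lower in KO1 at 6 h and 5 at 9 h, and 3 changed more upward in KO1 in the first step. DESeq2 gave 10 higher in KO2 at 0 h, 6 lower in KO2 against KO1, 3 lower in each KO line at 6 h, 4 lower in KO1 at 9 h, 3 upward in KO1 in the first step and 3 downward in each KO line in the second.

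Spike-in scaling, run within genotypes and for differences in change, gave 17 higher from 0 to 3 h and 28 lower from 3 to 9 h in KO1. KO2 gave 1 higher and 46 lower, 1 higher from 3 to 9 h, and 1 higher and 70 lower from 0 to 9 h. WT gave 7 and 28, 0 higher from 3 to 9 h, and 1 and 62. Differences in change gave 0 downward in the first step and 62 upward and 0 downward in the second for KO1, and 0 and 4, and 0 and 1, for KO2. The all-gene medians of these differences were 0.34 and 0.54 in KO1 and -0.16 and -0.16 in KO2. On this scale directions turned for the WT change of Mrpl41 (-0.12), Mrpl45 (-0.0032) and Mrps12 (-0.50), and in the second step of KO1 for Mrpl17 (0.27), Mrps17 (0.23) and Mrps18b (0.24). The cause was not tested.

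Leaving out 1 library gave 22 to 26 higher and 1 to 2 lower in KO1 at 0 h and 10 to 15 and 2 to 5 in KO2. At 3 h the ranges were 13 to 16 and 9 to 11 in KO1 and 17 to 23 and 10 to 11 in KO2, at 6 h 21 to 27 and 3 to 5 in KO1 and 13 to 15 and 2 to 5 in KO2, and at 9 h 17 to 20 and 5 to 7 in KO1 and 18 to 21 and 5 to 6 in KO2. KO2 against KO1 gave 6 to 10 lower. Differences in change gave 3 to 4 and 15 to 19, then 8 to 13 and 3 to 5, in KO1, and 6 to 9 and 8 to 14, then 5 to 10 and 5 to 6, in KO2. With 2 libraries a group at this depth, 24% of genes simulated with a 1.1-fold change between KO1 and WT at 0 h were recovered. This rate too may differ for the members.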
